A study of Mus musculus with 60 samples.

Results

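The cyclin-dependent kinases examined here are 8 protein-coding mouse genes, Cdk1, Cdk2, Cdk4, Cdk6, Cdk7, Cdk9, Cdk11b and Cdk12. They were chosen by name and were matched through their Ensembl identifiers to rows of the 3 deposited count tables, which together list 31354 genes. All 8 were present in every table and all 8 passed the filter on low counts in every comparison. Cholangiocyte-derived organoids are hollow epithelial spheres that grow from bile duct cells of the liver. All of them came from C57BL/6N mice given as 3-4 months old, and no allele or drug is labelled. In domes they grow inside drops of Matrigel, and in suspension they are shaken in medium with dilute Matrigel. The first table compared 3 dome cultures with 3 suspension cultures, each numbered pool combining material of several animals. The second held bulk cultures of Sets 1, 3 and 4, each derived from the liver of a single mouse, at passage 4 and again at passage 11, with 2 technical replicates per sample that were summed. The third held single organoids from suspension culture, of which 35 entered the analysis: 8 from Set 1 at passage 11, 10 from Set 2 and 5 from Set 3 at passage 3, and 12 from Set 4 at passage 4. Since each set is 1 mouse, P-values between sets measure the spread between organoids of 1 mouse, and passage cannot be told apart from the animal in Set 1.

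A cyclin-dependent kinase is inactive until it binds a cyclin. In the cell cycle, CDK4 and CDK6 bind D-type cyclins and phosphorylate the retinoblastoma protein, CDK2 binds cyclins E and A to start and carry DNA replication, and CDK1 binds cyclins A and B to drive mitosis. A separate branch of the family acts on RNA polymerase II: CDK7, with cyclin H and MNAT1, is part of the initiation factor TFIIH and also activates other CDKs, CDK9 with cyclin T forms the elongation factor P-TEFb, CDK12 with cyclin K acts in elongation and in the expression of DNA repair genes, and CDK11B with cyclins L takes part in splicing and transcription. Bile duct cells of the adult liver rarely divide, whereas organoids are kept by continued division.

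Values are CPM, counts scaled to a common library total and adjusted by the TMM factors of edgeR. Total counts per library were 1776490 to 14761853 for the cultures, 1486347 to 5532630 for the summed bulk passage samples and 1059002 to 11175868 for the 35 single organoids. All 7 ductal markers were counted in every library. Every mesenchymal marker on the list, the endothelial genes Kdr, Cdh5 and Stab2, the macrophage genes Adgre1, Lyz2 and Clec4f and the hepatocyte genes Serpina1a, Cps1 and Pck1 were at 0 in most libraries of each table. Other genes on these lists were counted. The hepatocyte gene Ttr was counted in every library. In single organoids, median counts were 6 for Alb, 4 for Cd68, 3 for Csf1r, 2 for Pecam1 and 2 for Lyve1. In these bulk libraries, fewer cells of a type and less RNA per cell cannot be told apart. A gene was called where the Benjamini-Hochberg adj. P-value of edgeR's quasi-likelihood F-test was below 0.05.

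Promoters are shown for Cdk1, Cdk4, Cdk11b and Cdk12. Cdk1 had the largest difference between passages, and the other 3 formed the strongest positive and negative pairs between single organoids, as given further on. Each RefSeq sequence runs from 250 bases before to 50 bases after the annotated start on GRCm38.p6, read along the gene's own strand. Cdk1 lies at chr10:69352863-69353162 on the minus strand, Cdk4 at chr10:127063285-127063584, Cdk11b at chr4:155624604-155624903 and Cdk12 at chr11:98203055-98203354, the last 3 on the plus strand. Capitals mark the motifs found among 5 that were searched on both strands. The first was the CCAAT box, spelled by its name. The second was TTTGAA, known as the CHR element of cell cycle genes. The third was CACGTG, an E box that factors such as MYC can bind. The fourth was TTTNNCGC, an E2F-type element, where N is any base. The last was CCGGAAGT, an ETS-type element.
Cdk1: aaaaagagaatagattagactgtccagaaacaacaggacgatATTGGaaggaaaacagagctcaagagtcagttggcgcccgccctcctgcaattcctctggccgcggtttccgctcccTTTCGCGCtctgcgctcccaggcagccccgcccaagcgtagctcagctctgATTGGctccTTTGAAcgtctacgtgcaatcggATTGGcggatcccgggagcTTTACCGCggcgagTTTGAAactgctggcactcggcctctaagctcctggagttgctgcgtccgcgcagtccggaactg
Cdk4: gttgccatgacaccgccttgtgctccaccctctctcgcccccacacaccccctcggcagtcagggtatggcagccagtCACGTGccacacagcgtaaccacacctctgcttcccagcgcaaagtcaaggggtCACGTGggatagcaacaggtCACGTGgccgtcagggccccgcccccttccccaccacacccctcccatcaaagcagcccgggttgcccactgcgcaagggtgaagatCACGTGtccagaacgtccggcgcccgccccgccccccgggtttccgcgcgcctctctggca
Cdk11b: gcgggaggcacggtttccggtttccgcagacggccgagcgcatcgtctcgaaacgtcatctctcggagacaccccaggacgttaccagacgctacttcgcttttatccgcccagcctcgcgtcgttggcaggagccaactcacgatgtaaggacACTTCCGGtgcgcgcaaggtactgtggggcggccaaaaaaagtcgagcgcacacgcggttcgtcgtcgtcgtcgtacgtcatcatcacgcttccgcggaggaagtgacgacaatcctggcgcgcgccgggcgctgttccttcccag
Cdk12: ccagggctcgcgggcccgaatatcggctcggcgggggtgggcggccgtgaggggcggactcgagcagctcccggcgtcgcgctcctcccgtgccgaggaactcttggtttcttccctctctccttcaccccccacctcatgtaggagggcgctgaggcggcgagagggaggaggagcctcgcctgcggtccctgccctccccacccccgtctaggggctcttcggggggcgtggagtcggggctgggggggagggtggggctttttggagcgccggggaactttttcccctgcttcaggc
The Cdk1 window held 3 CCAAT boxes, 2 CHR elements and 2 E2F-type elements, none of which overlap. The CHR elements began 71 and 15 bases before the start. The Cdk4 window held 4 E boxes and no other motif searched, the Cdk11b window 1 ETS-type element and the Cdk12 window none. Of 32851 RefSeq promoters of this length, 3.37% held 3 or more CCAAT boxes, 2.31% held 2 or more CHR elements, 0.326% held 2 or more E2F-type elements, 0.0883% held 3 or more E boxes and 3.89% held an ETS-type element. At least 1 CCAAT box was present in 37.4% of all promoters, 1 CHR element in 17.9%, 1 E box in 7.15% and 1 E2F-type element in 5.17%. Among the other members, Cdk2 held 1 CCAAT box and 1 E2F-type element, Cdk6 1 E box and 1 E2F-type element, Cdk7 1 E box and 1 ETS-type element, and Cdk9 1 CCAAT box and 1 ETS-type element. These matches describe letters in a window and not bound sites. RefSeq and GENCODE starts differ for some members. The GENCODE gene of Cdk12 starts at chr11:98203059, so nearly all of its window lies inside that gene. The windows of Cdk6 and Cdk9 lie wholly inside their GENCODE genes.

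In the GENCODE annotation of GRCm38, Cdk1, Cdk2 and Cdk4 are all on chromosome 10. Cdk1 spans 17.8 kb (chr10:69335146-69352938, minus strand), Cdk2 7.09 kb (chr10:128697939-128705031, minus strand) and Cdk4 4.39 kb (chr10:127063534-127067920, plus strand). Cdk6 is the longest member at 190 kb (chr5:3341485-3531008, plus strand). Cdk7 spans 28.3 kb (chr13:100702631-100730939, minus strand), Cdk9 7.29 kb (chr2:32705784-32713076, minus strand), Cdk11b 25.1 kb (chr4:155624854-155649938, plus strand) and Cdk12 75.4 kb (chr11:98203059-98278504, plus strand). Exons of Cdk4 share 641 bases with Tspan31 on the opposite strand, those of Cdk6 share 368 bases with the antisense transcript Gm17590, and those of Cdk2 share 34 bases with Pmel. The sources used here do not say whether counting used the strand, so reads from these stretches cannot be told apart. Levels are not compared between genes, because counts were not divided by transcript length.

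The first comparison asked how the culture format bears on expression. Of the 8 kinases, 5 were called, all of them lower in domes than in suspension: the cell cycle kinases Cdk1, Cdk4 and Cdk6 and the transcription kinases Cdk11b and Cdk12. Across all 12699 genes tested, 29.8% were called, 14.7% lower in domes and 15% higher. Groups did not overlap for 6 of the 8 members, against 47.4% of all genes tested. Of these 6, 5 were lower in domes, as were 25.8% of all genes, and Cdk9 was higher, as were 21.6% of all genes. No member was called higher in domes.

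Cdk1 stood at 61.6, 30.0 and 63.7 CPM in dome cultures 1, 2 and 3 and at 153, 131 and 140 CPM in suspension cultures 1, 2 and 3. Every suspension culture was above every dome culture, and dome culture 2 was the lowest. Expressed as dome minus suspension, the log2 fold-change was −1.43 ± 0.27 (SE from the F statistic, 3 cultures each). This is a level 2.69-fold lower in domes (adj. P = 0.00481, edgeR). Cdk6, the partner of D-type cyclins alongside Cdk4, stood at 39.3, 21.2 and 22.0 CPM in domes and 89.9, 89.2 and 77.6 CPM in suspension. Its difference was of similar size, −1.57 ± 0.26 on the log2 scale (adj. P = 0.00297, edgeR). Cdk4 differed less. It measured 182, 143 and 159 CPM in domes and 257, 257 and 244 CPM in suspension, with a log2 fold-change of −0.64 ± 0.18 (adj. P = 0.0250, edgeR).

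Cdk2, the kinase of DNA replication, did not pass the test. Its dome cultures held 11.5, 9.52 and 21.4 CPM and its suspension cultures 15.5, 13.5 and 21.0 CPM, so the groups overlapped, and the log2 fold-change was −0.28 ± 0.32 (adj. P = 0.527, edgeR).

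The transcription kinases were not uniform. Cdk12 had the fewest counts and the largest difference of the members, at 3.50, 4.39 and 2.20 CPM in domes and 13.9, 8.73 and 8.46 CPM in suspension. These dome values rest on 46, 6 and 4 counts. The log2 fold-change of Cdk12 was −1.60 ± 0.34 (adj. P = 0.00807, edgeR). Cdk11b, which acts with cyclins L, stood at 55.4, 43.9 and 30.2 CPM in domes and 123, 78.6 and 77.8 CPM in suspension, with suspension culture 1 above the other two, and a log2 fold-change of −1.08 ± 0.27 (adj. P = 0.0154, edgeR). Cdk7, the TFIIH kinase, measured 31.5, 16.1 and 29.6 CPM in domes and 31.1, 29.5 and 30.7 CPM in suspension, where only dome culture 2 lay apart. Its log2 fold-change was −0.20 ± 0.25 (adj. P = 0.570, edgeR). Cdk9, the P-TEFb kinase, was the single member whose level was above suspension in all 3 domes, with 64.8, 56.4 and 87.8 CPM against 56.3, 55.7 and 53.4 CPM. The gap between the lowest dome and the highest suspension culture was small, the log2 fold-change was 0.34 ± 0.20 (adj. P = 0.231, edgeR), and its sign turned to −0.02 with library totals in place of TMM.

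Calls of Cdk4 and Cdk11b depended on single libraries. Without suspension culture 1, 3 members were called, and Cdk4 and Cdk11b had adj. P-values of 0.105 and 0.0755. Cdk4 was also not called without suspension culture 2 or 3. Scaling by library totals moved the median of all genes by −0.39 on the log2 scale and the share of genes higher in domes from 50.5% to 21.8%, and under it the same 5 members were called. Mitochondrial genes made up 1.64% to 2.02% of counts in domes and 3.72% to 4.02% in suspension. Dome culture 2 also held 93.0 CPM of macrophage markers in sum, against 3.36 to 29.1 CPM in the other cultures. Nearly all of this sum was Cd68 and Csf1r. Over all 6 cultures Ptprc held at most 4 counts and Adgre1 at most 1, and Lyz2 and Clec4f were at 0. The part of the mitochondrial share or of these markers in these differences was not tested. Without dome culture 2, 5 members were called.

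**Figure D1:**
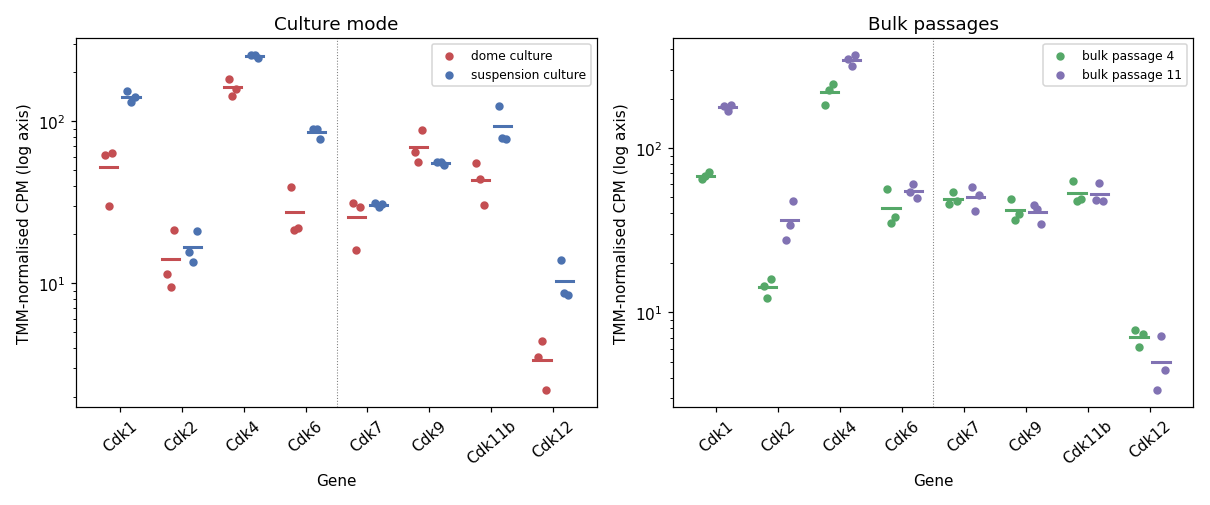
TMM-normalised CPM on a log axis for the 8 kinases, with 1 point per library and a short line at the mean of 3. On the left, all 3 suspension points of Cdk1, Cdk4, Cdk6, Cdk11b and Cdk12 lie above all 3 dome points, and on the right all 3 passage 11 points of Cdk1, Cdk2 and Cdk4 lie above all 3 passage 4 points. The dotted line separates cell cycle from transcription kinases.

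Genes that act with these kinases were counted by list. Of all genes tested, 14.7% were called lower in domes and 15% higher. Of 8 cell cycle cyclins, 5 were lower in domes and none higher, with a median log2 fold-change of −1.35 against −0.04 over all genes tested. In summed level, dome culture 1 stood apart, with 1071 CPM of these cyclins against 274 and 355 CPM in the other domes and 876 to 1015 CPM in suspension. Ccnd2, a D-type cyclin that was not called, ranged from 147 to 798 CPM among the domes. The E-type cyclins led the called genes, Ccne2 at −3.10 ± 0.58 (adj. P = 0.00500, edgeR) and Ccne1 at −2.38 ± 0.30. Of 8 activators and brakes of CDK1 and CDK2, 3 were lower, including Cdc25c, a phosphatase that activates CDK1, at −2.11 ± 0.39, and Cks1b, a small CDK subunit, at −1.50 ± 0.29. Of 19 genes of the Rb, E2F and DREAM group, which restrain or drive S phase genes, 5 were lower, led by the E2F repressors E2f7 at −2.28 ± 0.63 and E2f8 at −2.20 ± 0.31. Of 10 proliferation markers, 9 were lower, led by Cenpf at −3.96 ± 0.44 and Mki67 at −2.26 ± 0.30.

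Of 7 CDK inhibitors, 2 were called higher in domes, as were 15% of all genes tested, and none lower. In either direction 29.8% of all genes were called, so this count is near that share. The 2 were Cdkn1a, which encodes p21, at 2.25 ± 0.42 (adj. P = 0.00499, edgeR) and Cdkn2a, whose locus encodes p16 and p19ARF, at 2.22 ± 0.25 (adj. P = 0.000817, edgeR). Of 7 partners of the transcription kinases, 2 were lower, the P-TEFb cyclin Ccnt2 at −1.33 ± 0.31 and the cyclin Ccnl1 at −0.87 ± 0.23. Of 15 regulators of P-TEFb and elongation factors, 1 was higher, Ell at 1.05 ± 0.32, and 3 were lower, among them Larp7 at −1.03 ± 0.22. None of the 7 core TFIIH genes was called by edgeR, and their median was −0.29. Of 9 other CDK family genes tested, Cdk16 was higher at 1.08 ± 0.24 and Cdk17 lower at −1.03 ± 0.28.

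The second comparison asked what changes with prolonged passaging. The direction of every passage value rests on the sample labels, and the study's own descriptions of that direction for cell cycle genes contradict each other, so a swap of passage labels cannot be told apart from a true direction. At passage 11, 3 of the 8 kinases were called, and all 3 were cell cycle kinases with higher levels than at passage 4: Cdk1, Cdk2 and Cdk4. Across 13738 genes tested, 20.3% were called and 10.1% were called higher. The 4 transcription kinases were not called. Groups did not overlap for the 3 called members, all higher at passage 11, and overlapped for the other 5. Of all genes tested, 39.5% did not overlap, 19.2% higher and 20.3% lower at passage 11.

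Cdk1 stood at 64.7, 67.5 and 71.0 CPM in Sets 1, 3 and 4 at passage 4 and at 179, 168 and 182 CPM in the same sets at passage 11. Its means were 67.7 ± 3.1 and 176 ± 7.1 CPM (SD, n = 3), and the 2 groups were far apart relative to their spread. The log2 fold-change was 1.38 ± 0.13, 2.60-fold (adj. P = 0.000353, edgeR). From the technical replicates of each set, scaled by library totals alone, the log2 ratio was 1.39 in Set 1, 1.37 in Set 3 and 1.40 in Set 4. Cdk2 stood at 14.5, 12.3 and 16.0 CPM at passage 4 and at 27.3, 34.1 and 47.6 CPM at passage 11. All sets were higher at passage 11, by unequal amounts, with log2 ratios of 0.84, 1.51 and 1.66 in Sets 1, 3 and 4. The fitted log2 fold-change of Cdk2 was 1.31 ± 0.22 (adj. P = 0.00407, edgeR). Cdk4 stood at 184, 224 and 246 CPM at passage 4 and at 346, 318 and 370 CPM at passage 11, with a log2 fold-change of 0.66 ± 0.15 (adj. P = 0.0133, edgeR).

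Cdk6 did not share this difference. It measured 56.4, 35.1 and 37.8 CPM in Sets 1, 3 and 4 at passage 4 and 53.8, 60.4 and 49.5 CPM at passage 11. Set 1 was thus the highest at passage 4 and lay between the other sets at passage 11. Its log2 fold-change was 0.36 ± 0.19 (adj. P = 0.215, edgeR), and without the passage 4 sample of Set 1 it was 0.59 ± 0.15 (adj. P = 0.0329, edgeR), which brought the called members to 4. Among transcription kinases, Cdk7 measured 45.8, 54.2 and 47.3 CPM at passage 4 and 58.3, 41.5 and 51.4 CPM at passage 11, a log2 fold-change of 0.03 ± 0.16. Cdk9 measured 48.9, 36.6 and 39.9 CPM and then 45.0, 42.7 and 34.3 CPM, a log2 fold-change of −0.02 ± 0.17. Cdk11b measured 62.6, 47.3 and 49.2 CPM and then 48.0, 61.3 and 47.6 CPM, a log2 fold-change of −0.01 ± 0.17. Cdk12 measured 7.77, 6.13 and 7.38 CPM and then 3.36, 7.15 and 4.45 CPM on 7 to 42 counts, a log2 fold-change of −0.46 ± 0.32 (adj. P = 0.344, edgeR). Passage groups overlapped in all 4 of these genes.

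As a summary, the mean log2(CPM + 1) of the 4 cell cycle kinases minus that of the 4 transcription kinases was 0.762 to 0.955 at passage 4 and 1.74 to 2.10 at passage 11. In the cultures it was 0.535 to 1.07 in domes and 1.04 to 1.39 in suspension. The passage groups were thus separate on this measure, while dome and suspension cultures overlapped. Mitochondrial genes made up 1.99% to 2.63% of counts at passage 4 and 0.895% to 1.71% at passage 11. Hepatocyte markers summed to 270 to 686 CPM at passage 4 and 741 to 1093 CPM at passage 11. Most of this sum was Ttr, with 1031 to 3895 counts per library. Apoa1 held 2 to 431 counts, and each other marker on the list at most 40. Of the 3 markers tested, 1 was called higher, as were 10.1% of all genes, and the passage groups overlapped in all 3. The part of the mitochondrial share or of these markers in the kinase differences was not tested.

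**Figure D2:**
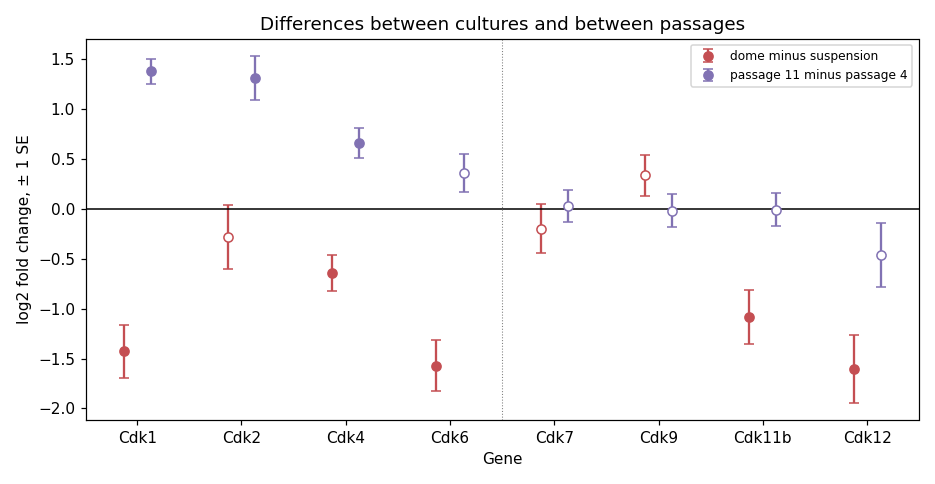
Log2 fold-change with 1 SE for each kinase, dome minus suspension in red and passage 11 minus passage 4 in purple, with filled points for adj. P-values below 0.05. Cdk1 stands at −1.43 and 1.38, Cdk2 is filled only for passage, Cdk6, Cdk11b and Cdk12 only for culture, and Cdk7 and Cdk9 in neither.

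Of all genes tested, 10.1% were called higher at passage 11 and 10.1% lower. In the libraries labelled passage 11, 5 of 8 cell cycle cyclins were higher than in those labelled passage 4 and none lower, with a median log2 fold-change of 1.55 against −0.05 over all genes tested. The largest were Ccna2, the cyclin of S phase and mitotic entry, at 2.41 ± 0.18 (adj. P = 0.000164, edgeR), and Ccne1 at 2.02 ± 0.40. Of 7 activators and brakes of CDK1 and CDK2 tested, 4 were higher, led by the mitotic kinase Plk1 at 2.11 ± 0.19 and Cdc25c at 2.02 ± 0.32. Of 19 genes of the Rb, E2F and DREAM group, 7 were higher, led by E2f8 at 2.20 ± 0.42 and E2f1 at 1.82 ± 0.23. Of 10 proliferation markers, 8 were higher, led by Birc5 at 2.09 ± 0.19 and Aurkb at 2.02 ± 0.24. Mki67 was not among the called genes, at 0.61 ± 0.31 (adj. P = 0.191, edgeR).

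The counts below stand beside 20.3% of all genes called, 10.1% in each direction. CDK inhibitors split in direction at passage 11. Cdkn2a, at 2.32 ± 0.42 (adj. P = 0.00534, edgeR), Cdkn2c, which encodes p18, at 1.34 ± 0.20 and Cdkn2d were higher. Cdkn2b, which encodes p15, at −0.84 ± 0.26 and Cdkn1a at −0.82 ± 0.26 (adj. P = 0.0488, edgeR) were lower. Of 7 partners of the transcription kinases, none was higher and 3 were lower, including Ccnt2 at −1.61 ± 0.22 and Ccnl1 at −0.75 ± 0.17. Regulators of P-TEFb and elongation factors moved both ways, 3 higher and 3 lower of 15. Nelfcd at 1.18 ± 0.21 and Larp7 at 0.82 ± 0.22 were higher, whereas Aff1 at −1.51 ± 0.32 and Aff4 at −1.07 ± 0.22, scaffolds of the super elongation complex, were lower. Gtf2h3 at 0.84 ± 0.22 and Gtf2h5 at 0.59 ± 0.13 were the 2 of 7 TFIIH genes called, both higher. Of 9 other CDK family genes tested, Cdk17 at −1.39 ± 0.31 and Cdk20 at −0.86 ± 0.26 were lower.

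The third comparison asked how sets of single organoids differ. The 4 sets were compared in 6 pairs, with adjustment over all 6 together. No member was without overlap in any pair, and of all genes the share without overlap was 1.11% for Sets 1 and 2, 3.69% for Sets 1 and 3, 1.07% for Sets 1 and 4, 0.553% for Sets 2 and 3, 0.201% for Sets 2 and 4 and 2.07% for Sets 3 and 4. Between Set 1 and Set 2, Cdk1 was the 1 member called, among 14.3% of 13927 genes. Between Set 1 and Set 3 it was Cdk2, among 9.43% of genes. Between Set 1 and Set 4, Cdk1, Cdk2 and Cdk4 were called, among 20% of genes. Between Set 2 and Set 4, Cdk9 and Cdk12 were called, among 12.4% of genes, and between Set 3 and Set 4 Cdk12, among 11.6% of genes. Between Set 2 and Set 3 no member was called by edgeR, among 3.93% of genes, although Cdk1 and Cdk2 had unadjusted P-values of 0.0218 and 0.00909. Cdk6, Cdk7 and Cdk11b were called in none of the 6 pairs.

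Cdk1 ranged from 14.9 to 53.4 CPM in Set 1 with a median of 31.5, from 29.7 to 81.3 in Set 2 with a median of 49.2, from 28.4 to 44.5 in Set 3 with a median of 33.6, and from 43.0 to 62.4 in Set 4 with a median of 50.1. The medians of Sets 1 and 3 lay below those of Sets 2 and 4. Set 3 was not called against Set 2 (adj. P = 0.113, edgeR) or Set 4 (adj. P = 0.101, edgeR), and neither Sets 2 and 4 (−0.0015 ± 0.16 on the log2 scale) nor Sets 1 and 3 (−0.17 ± 0.22) differed beyond their spread. Set 1 was lower than Set 2 by a log2 fold-change of −0.68 ± 0.19 (adj. P = 0.0121, edgeR) and lower than Set 4 by −0.69 ± 0.18 (adj. P = 0.00907, edgeR). With all 42 organoids neither passed (adj. P = 0.218 and 0.244), and the call against Set 4 was also lost with libraries thinned to equal depth (adj. P = 0.0647). Set 1 organoids were taken at passage 11, and in the bulk table Cdk1 was higher in the libraries labelled passage 11 than in those labelled passage 4, a direction under the doubt stated above. The 2 tables were normalised separately and the difference between these contrasts was not tested. Proliferation markers summed to 470 to 1475 CPM in Set 1 and 920 to 1950 CPM in the other sets.

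Cdk4 was at a median of 127 CPM in Set 1 (98.0 to 234), 154 in Set 2 (112 to 312), 175 in Set 3 (98.4 to 246) and 229 in Set 4 (160 to 322). The end groups differed, Set 1 lower than Set 4 by −0.80 ± 0.18 (adj. P = 0.00229, edgeR), while neighbours in this order were not called. Set 3 minus Set 4 was −0.47 ± 0.21 (adj. P = 0.139, edgeR) and Set 1 minus Set 2 was −0.37 ± 0.19 (adj. P = 0.192, edgeR). Cdk2 was at 3.53 to 10.6 CPM in Set 1, 5.95 to 12.6 in Set 2, 7.93 to 18.7 in Set 3 and 5.14 to 14.4 in Set 4. Set 1 was lower than Set 3 by −0.95 ± 0.25 (adj. P = 0.00814, edgeR) and lower than Set 4 by −0.63 ± 0.21 (adj. P = 0.0375, edgeR). Counts behind Cdk2 were as low as 6 in a library. The call against Set 3 was lost without organoid 1 of Set 3 (adj. P = 0.0605) or with libraries thinned to equal depth (adj. P = 0.104), and the call against Set 4 was lost with thinning (adj. P = 0.194) or with no filter on low counts (adj. P = 0.0821). Cdk6, at medians of 125, 132, 151 and 109 CPM in Sets 1 to 4, covered 66.4 to 223 CPM over all 35 organoids.

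Cdk12 was lowest in Set 4, at 15.8 to 43.4 CPM with a median of 28.1, against medians of 48.4, 44.9 and 48.7 CPM in Sets 1, 2 and 3. Set 2 was higher than Set 4 by 0.68 ± 0.20 (adj. P = 0.0182, edgeR), Set 3 by 0.75 ± 0.24 (adj. P = 0.0311, edgeR) and Set 1 by 0.60 ± 0.21 without passing (adj. P = 0.0526, edgeR). The call of Set 3 was lost without organoid 3, 4, 5 or 6 of that set (adj. P = 0.0503 to 0.0815), and both calls were lost with thinning (adj. P = 0.0548 and 0.112) and with all 42 organoids (adj. P = 0.0610 and 0.116). Cdk9 was highest in Set 4, at 24.9 to 51.4 CPM with a median of 30.1, and lowest in Set 2, at 12.1 to 42.2 CPM with a median of 21.3. Set 2 was lower than Set 4 by −0.50 ± 0.17 (adj. P = 0.0425, edgeR), and this was lost without organoid 6 of Set 3 (adj. P = 0.0507), with library totals (adj. P = 0.0523), with no filter on low counts (adj. P = 0.0673), with all 42 organoids (adj. P = 0.114) and with thinning (adj. P = 0.233). Cdk11b was at medians of 303, 284, 271 and 251 CPM in Sets 1 to 4, and Set 1 exceeded Set 4 by 0.48 ± 0.16 (adj. P = 0.0502, edgeR). Cdk7 was at medians of 20.7, 23.4, 21.1 and 21.2 CPM and had the lowest coefficient of variation of the members in Sets 1, 2 and 3, 23.7%, 19.3% and 11.2%, while in Set 4 Cdk1 was lower, 10.7% against 14.9%.

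**Figure D3:**
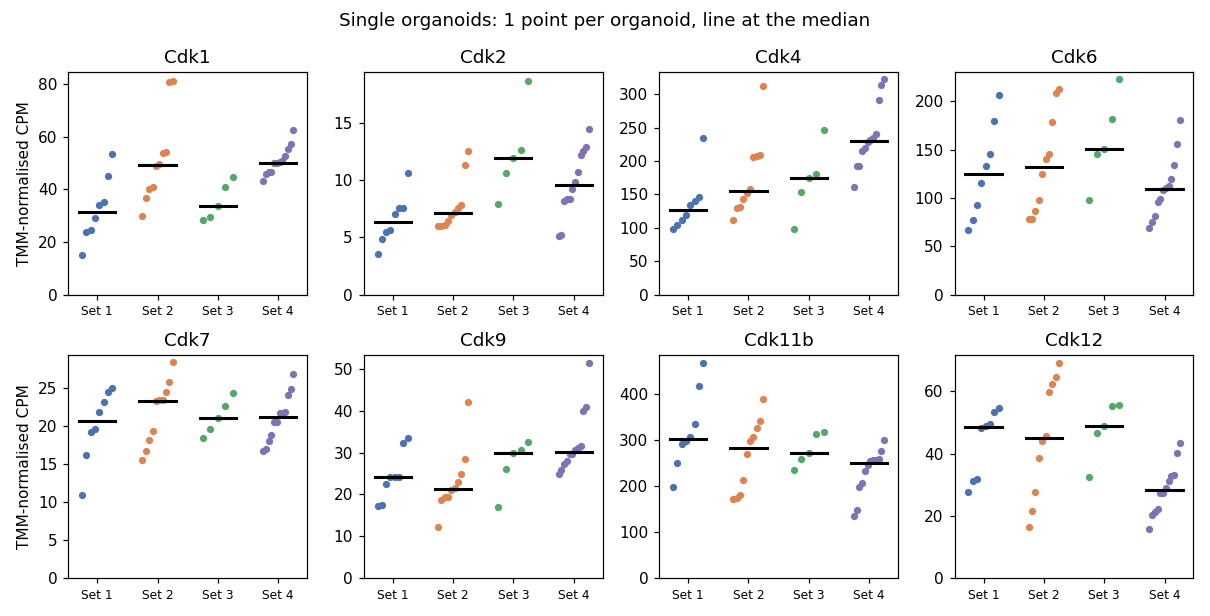
TMM-normalised CPM of each kinase in 35 single organoids, by set, sorted within a set, with a line at the median. Cdk1 medians run from 31.5 in Set 1 to 50.1 CPM in Set 4, Cdk12 is lowest in Set 4, and all sets overlap in every panel.

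Within sets, organoids of 1 mouse differed from each other in a shared pattern. After the mean of each set was removed from log2 CPM, all 28 pairs of members were correlated over 35 organoids, and P-values were obtained from 100000 permutations within sets. A total of 11 pairs passed at an adj. P-value below 0.05, of which 6 were positive and 5 negative. The share of pairs of other genes that would pass was not determined. Whether 11 of 28 is more than other genes would show was therefore not tested. Cdk4 and Cdk11b each reached r = 0.951 with a gene outside the family, above any pair of members. Cdk11b, Cdk12 and Cdk6 rose and fell together, Cdk4 and Cdk9 rose and fell together, with Cdk2 in the 35 organoids used, and Cdk4 and Cdk9 were low where Cdk11b and Cdk12 were high. These 2 groups each mix cell cycle and transcription kinases. Cdk1 and Cdk7 were in no pair that passed.

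Cdk11b and Cdk12 were the pair with the highest correlation (r = 0.824, rho = 0.815, permutation P = 1e-05, the smallest these permutations can give, adj. P = 9.33e-05, n = 35). Within sets r was 0.698 in Set 1, 0.916 in Set 2 and 0.794 in Set 4, and it was 0.843 without the 2 organoids farthest from the median of Cdk11b. In Set 2, the 3 organoids numbered 2, 6 and 11 had the lowest Cdk11b of the set, 181, 174 and 171 CPM, and also its lowest Cdk12, 16.4, 27.6 and 21.4 CPM. Organoid 4 of Set 2 had the highest Cdk11b, 390 CPM, with 64.5 CPM of Cdk12. Cdk12 and Cdk6 correlated less closely (r = 0.553, rho = 0.495, permutation P = 0.00162, adj. P = 0.00756), as did Cdk11b and Cdk6 (r = 0.445, rho = 0.414, permutation P = 0.0138, adj. P = 0.0351).

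Cdk4 and Cdk9 were the closest pair of the other group (r = 0.755, rho = 0.683, permutation P = 1e-05, adj. P = 9.33e-05), with r of 0.743, 0.643 and 0.884 in Sets 1, 2 and 4. Cdk4 with Cdk2 gave r = 0.545 (rho = 0.464, permutation P = 0.00112, adj. P = 0.00627) and Cdk9 with Cdk2 gave r = 0.450 (rho = 0.404, permutation P = 0.00789, adj. P = 0.0245). With all 42 organoids these relations of Cdk2 had r of 0.197 and 0.189. Between the groups, Cdk4 was opposed to Cdk11b (r = −0.759, rho = −0.792, permutation P = 1e-05, adj. P = 9.33e-05), with r of −0.874, −0.889 and −0.596 in Sets 1, 2 and 4, and to Cdk12 (r = −0.734, rho = −0.730, permutation P = 2e-05, adj. P = 0.000140). In Set 1, organoid 6 had the highest Cdk4, 234 CPM, and the lowest Cdk11b, 199 CPM, and organoid 4 had the lowest Cdk4, 98.0 CPM, with 419 CPM of Cdk11b. Cdk9 was opposed to Cdk11b (r = −0.512, rho = −0.508, permutation P = 0.00279, adj. P = 0.0112) and to Cdk12 (r = −0.495, rho = −0.413, permutation P = 0.00620, adj. P = 0.0217), and Cdk4 to Cdk6 (r = −0.455, rho = −0.475, permutation P = 0.0109, adj. P = 0.0305). The 2 organoids farthest from the median of the lower-numbered kinase of each pair were then left out. The 11 values of r kept their sign, from 0.441 to 0.843 and from −0.705 to −0.356. Extremes of the other kinase of a pair were not left out. CPM are shares of a total, and the part of this in the negative values was not tested.

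**Figure D4:**
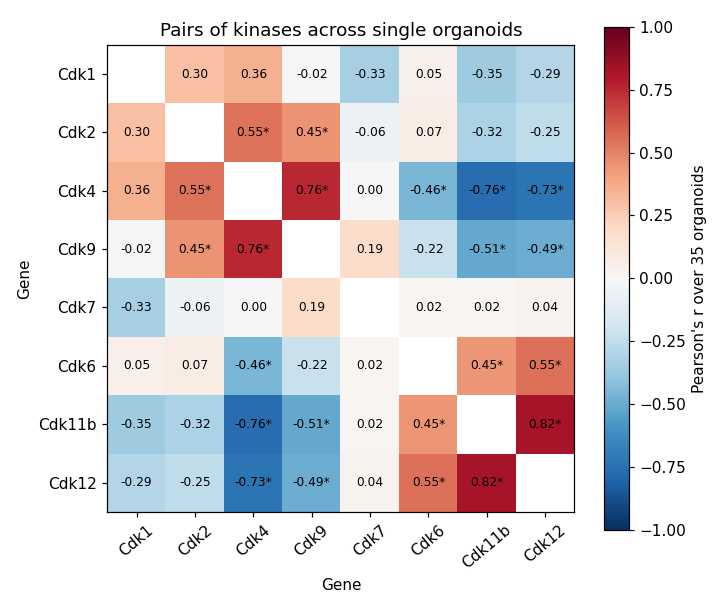
Pearson's r of each pair of kinases over 35 single organoids after removal of set means, red for positive and blue for negative values, with an asterisk where the adj. P-value is below 0.05. Cdk2, Cdk4 and Cdk9 form one positive block and Cdk6, Cdk11b and Cdk12 another, with r = −0.76 between Cdk4 and Cdk11b.

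Depth moved with several members. Log total counts correlated with Cdk1 (r = −0.490, rho = −0.324, permutation P = 0.00476, adj. P = 0.0190), Cdk7 (r = 0.470, rho = 0.494, permutation P = 0.0108, adj. P = 0.0288) and Cdk9 (r = 0.469, rho = 0.387, permutation P = 0.00355, adj. P = 0.0190), and in all with 7 of the 8 members. The share of all genes that correlate with log total counts was not determined. Whether 7 of 8 is more than other genes would show was therefore not tested. For Cdk1 r fell to −0.371 without the 2 organoids farthest from the median of log total counts. Within Sets 1, 2 and 4 r was −0.889, −0.676 and 0.212. Regressing log total counts out of both genes, a step chosen after these values were seen, left r = 0.796 for Cdk11b and Cdk12, −0.723 for Cdk4 and Cdk11b and 0.714 for Cdk4 and Cdk9. The same step moved Cdk1 with Cdk4 from 0.359 to 0.647, Cdk1 with Cdk11b from −0.355 to −0.665 and Cdk1 with Cdk12 from −0.294 to −0.588. With libraries thinned to equal depth, also chosen after these values were seen, the same 3 pairs had r of 0.398, −0.294 and −0.273, close to those without either step. Without either step, none of the 7 relations of Cdk1 to other members passed (adj. P = 0.182 to 0.912, permutation test over 7 relations). The nearest were Cdk4 (rho = 0.468, unadjusted permutation P of rho = 0.00926) and Cdk11b (rho = −0.459, unadjusted permutation P of rho = 0.0119). Without the 2 organoids farthest from the median of Cdk1, r was 0.517 with Cdk4, −0.528 with Cdk11b and −0.499 with Cdk12. With the other members it was then −0.321 to 0.295. The share of mitochondrial genes correlated with no member after adjustment (adj. P = 0.169 to 0.901, permutation test).

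Mki67, which encodes the proliferation antigen Ki-67, was correlated with each of the 8 members in a further family chosen with the values known. It correlated with Cdk11b (r = 0.845, rho = 0.822, permutation P = 1e-05, adj. P = 2.67e-05) and with Cdk12 (r = 0.736, rho = 0.757, permutation P = 1e-05, adj. P = 2.67e-05). It was opposed to Cdk4 (r = −0.687, rho = −0.648, permutation P = 1e-05, adj. P = 2.67e-05), to Cdk9 (r = −0.613, rho = −0.555, permutation P = 0.000140, adj. P = 0.000280) and to Cdk2 (r = −0.397, rho = −0.365, permutation P = 0.0254, adj. P = 0.0406). With Cdk1, the mitotic kinase, r was −0.147 (rho = −0.272, permutation P = 0.465, adj. P = 0.465), and within Sets 1, 2 and 4 it was 0.331, −0.610 and −0.224. Within the same sets, r of Mki67 with Cdk11b was 0.902, 0.864 and 0.794. In the cultures, by contrast, Mki67 and Cdk1 were both called lower in domes, and at passage 11 Cdk1 was called and Mki67 was not. The share of all genes that correlate with Mki67 between single organoids was not determined.

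**Figure D5:**
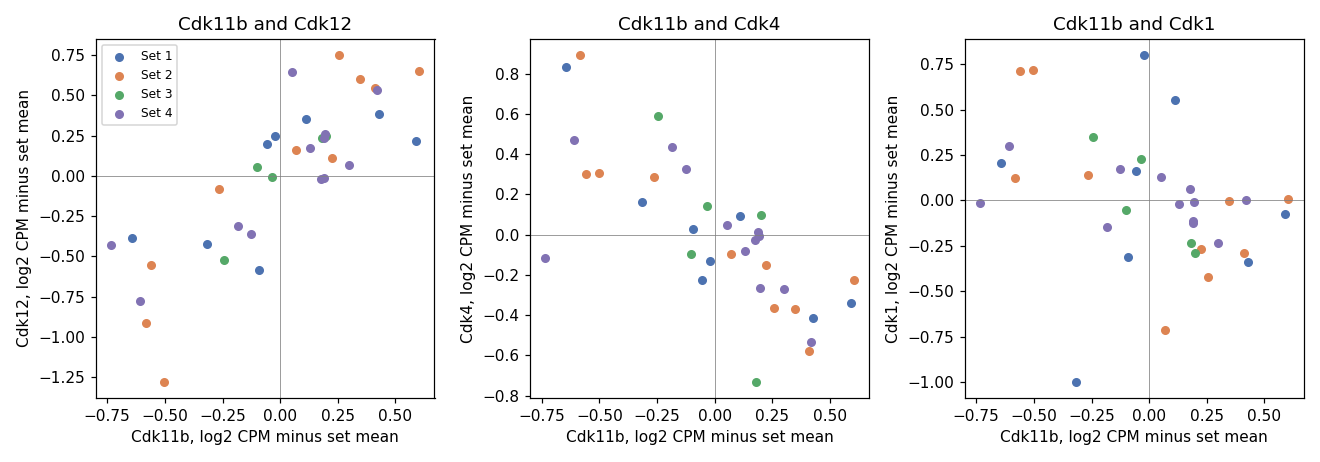
Log2 CPM minus the set mean for single organoids, coloured by set, with Cdk11b on each x axis and Cdk12, Cdk4 or Cdk1 on the y axis. Cdk12 climbs with Cdk11b (r = 0.824), Cdk4 declines (r = −0.759), and Cdk1 is scattered (r = −0.355).

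Levels in single organoids are given beside the bulk tables without a test, since each table was normalised separately. Per the study's methods, RNA was also prepared differently, as total RNA from bulk organoids and as bead-captured mRNA from single organoids. A difference in level cannot be told apart from this difference in preparation. Cdk11b covered 135 to 469 CPM in single organoids, 77.8 to 123 CPM in suspension cultures and 47.3 to 62.6 CPM in bulk passage samples. Cdk12 covered 15.8 to 69.0 CPM in single organoids and 2.20 to 13.9 CPM over all bulk libraries. Mki67 covered 121 to 536 CPM in single organoids and 5.17 to 35.9 CPM over all bulk libraries. Cdk1 covered 14.9 to 81.3 CPM in single organoids and 30.0 to 182 CPM over all bulk libraries, and the dome cultures and bulk passage 4 samples lay inside the range of the single organoids.

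For each member, up to 3 genes with the most similar pattern are given, taken among the 6223 genes whose average log2 CPM reached 4, by Pearson's r of set-centred log2 CPM over the same 35 organoids, as a description. Cdk1 was closest to Aurka (r = 0.863), which encodes a mitotic kinase, Nhp2 (0.854) and Ruvbl2 (0.848). Cdk4 was closest to Snrpb (0.951), Mdh2 (0.944) and Myl12a (0.925). Cdk11b was closest to Prpf38b (0.951), Acin1 (0.951) and Numa1 (0.942), and Cdk12 to Gm5909 (0.912), Rsrc2 (0.905) and Srsf11 (0.903). Cdk9 was closest to Scamp3 (0.820), Prpsap1 (0.817) and Arf1 (0.80), and Cdk6 to Dusp3 (0.779), Maml2 (0.752) and Ddx18 (0.751). Cdk2, the member with the fewest counts, and Cdk7 had lower values, Cdk2 with Srm (0.674) and Eif4e (0.671), and Cdk7 with Dld (0.701), Chn2 (0.698) and Ghitm (0.650).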

How the data were processed

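The values are whole-number counts per gene as deposited by the authors. Per the labels and the study's methods, libraries with unique molecular identifiers were prepared, mapped to GRCm38 with STAR and counted with featureCounts, and libraries were down-sampled depending on their size. The submitters' processing notes list SAMtools 1.9, R 3.6.3, edgeR 3.28.1 and limma 3.42.2. The sources used here do not say whether the counts are molecules or reads. Input of single organoid libraries was equalised before library preparation, so total counts do not measure an organoid's RNA.

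Here, R 4.3.3 was used. The filter was filterByExpr at min.count 3 (12699, 13738 and 13927 genes left for cultures, passages and single organoids). After TMM normalisation, tests used edgeR 4.0.16, quasi-likelihood F-test, Benjamini-Hochberg adjusted at 0.05. SEs were derived from the F statistic. At the smallest single organoid total, 1059002, 1 CPM is about 1 count. The 7 organoids that the study left out were left out. Cultures with the same number came from the same pool and bulk samples of a set from the same mouse, and residuals of same-numbered samples correlated at 0.153, 0.165 and 0.191 for cultures and 0.110, 0.0283 and 0.108 for passages. Correlations used log2 CPM with a prior count of 2. Technical pairs were summed. No label says that organoids of a set are independent cultures. Promoters are from RefSeq (GRCm38.p6, all 8 matched) and gene positions from GENCODE on GRCm38.

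The members, gene lists and tests were chosen with earlier results of these data known. Named genes of a list are the called genes with the 2 largest changes per direction. A few genes that the rules name are not reported here. Alternatives were RLE factors, library totals, 2 other filters, limma-voom (limma 3.58.1), DESeq2 1.42.0, thinning to equal depth, a replicate block, all 42 organoids and leaving out replicates. The fits were tested on simulated data with known changes.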

Additional observations from a re-analysis of the deposited data

Results flagged for a closer look

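Among 24 combinations of a member and a set of 5 to 10 organoids, 2 held an organoid far from the rest. Chance gives about 1 in 20 such combinations, so 2 of 24 is near what chance gives. Both concern Cdk4. Organoid 6 of Set 1 stood at 234 CPM (1080 counts) against 98.0 to 146 CPM in the other 7, and organoid 11 of Set 2 at 312 CPM (1067 counts) against 112 to 208 CPM in the other 9. These are also the organoids with the lowest Cdk11b of their sets, 199 and 171 CPM.

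In bulk cultures, sets went in opposite directions between passages for 4 members, judged by both technical replicates of a set lying on one side. The log2 ratio of passage 11 to passage 4 for Cdk6 was −0.16 in Set 1, 0.84 in Set 3 and 0.40 in Set 4. For Cdk7 it was 0.25 in Set 1, −0.33 in Set 3 and 0.19 in Set 4. For Cdk9 it was 0.26 in Set 3 and −0.16 in Set 4, and for Cdk11b −0.47 in Set 1 and 0.43 in Set 3. These differences between sets were not tested, since technical replicates share a culture. With so few technical replicates per sample, such a split can also arise by chance. The share of all genes with opposite directions was not determined. Whether 4 members is more than other genes would show was therefore not tested.

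The 7 organoids left out, with total counts of 666660 to 1152914, held counts of every member. Scaled together with the others, their median was 59.7 CPM for Cdk1, 9.46 for Cdk2, 128 for Cdk4, 115 for Cdk6, 13.9 for Cdk7, 20.8 for Cdk9, 335 for Cdk11b and 31.3 for Cdk12. In the 35 organoids used, the medians were 45.7, 7.98, 181, 120, 21.8, 26.2, 261 and 38.7 CPM in the same order.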

How the results depend on the processing

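In the cultures, 5 members were called under each alternative other than leaving out a suspension culture, which always gave fewer. Over the 6 left-out cultures, dome and suspension together, 3 to 5 were called. Between passages, 3 were called under each alternative, and 3 to 4 over the 6 left-out samples. A block for the shared pool or mouse gave 5 and 3 called members in these fits and changed no call of a member. For single organoids, all 42 organoids gave 0 called members for Set 1 minus Set 2 (main value 1), 0 for Set 2 minus Set 4 (2) and 0 for Set 3 minus Set 4 (1). Thinning to the smallest total gave 0 for Set 1 minus Set 3 (1), 1 for Set 1 minus Set 4 (3), 0 for Set 2 minus Set 4 and 0 for Set 3 minus Set 4. DESeq2, and adjustment of each comparison on its own, gave 5 for Set 1 minus Set 4. No filter beyond 1 count gave 1 for Set 2 minus Set 4. Library totals, added after the data were seen, gave 1 for Set 2 minus Set 4 and 1 for Set 2 minus Set 3 (0). Organoid numbers of different sets share only a number, and a block on them gave 0 for Set 2 minus Set 4 and 0 for Set 3 minus Set 4. Leaving out each Set 3 organoid gave 0 to 1 for Set 1 minus Set 3, 0 to 1 for Set 2 minus Set 3, 1 to 2 for Set 2 minus Set 4 and 0 to 1 for Set 3 minus Set 4. The causes were not tested. Relations of Cdk1 past the threshold numbered 4 with all 42 organoids (0). No call of a member changed direction. Where a member was called neither way, a change of its sign was not counted. Thinning ended calls of Cdk1, Cdk2, Cdk9 and Cdk12 between sets, and which members depth limits most was not tested.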
